A study of Mus musculus with 6 samples.

Results

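Tropomyosins, tropomodulins and leiomodins are the proteins that line and finish the actin thin filament. The 10 genes described here were chosen by name from the deposited expression table, without use of their values: the tropomyosins Tpm1, Tpm2, Tpm3 and Tpm4, the tropomodulins Tmod1, Tmod3 and Tmod4, and the leiomodins Lmod1, Lmod2 and Lmod3. Each has a single record among the 55413 gene records used. RNA was sequenced from C2C12, an established mouse myoblast line, on day 4 of myogenic differentiation. Growth medium was DMEM with 10% fetal bovine serum, and it was exchanged for 2% horse serum to start differentiation. There were 3 libraries labelled FHL3-KO, a knockout of the LIM-domain protein FHL3, and 3 labelled WT. All 6 libraries share the cell line, the medium and the day, while no label names the clone, the targeted exon or the guide. An effect of the clone cannot be told apart from one of the genotype. The labels do not tell whether the replicates of a group were separate cultures, and the p-values below therefore cover only the spread among these libraries, which may be technical.

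Tropomyosin is a coiled coil of paired chains that lies end to end along the actin filament. In striated muscle it works with troponin to open or close the myosin sites on actin when calcium changes. Tropomodulins cap the slow-growing pointed end of the filament, in the middle of the sarcomere, and bind tropomyosin there. Leiomodins are related to tropomodulins, but they start and lengthen actin filaments instead of only capping them.

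Tmod1 was the gene of this set that differed most, and 4 others were higher with smaller differences. In libraries labelled FHL3-KO, Tmod1 was 2.47 times its WT mean, and Tpm1, Tpm2 and Lmod2 were 1.41, 1.45 and 1.35 times theirs. Lmod1 was also called higher, at a low level and with a call that ended when any library was left out. Tpm3, Tpm4, Tmod3 and Lmod3 did not pass the test. Tmod4 was too low to be tested.

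Sequences before RefSeq start sites of the genes that rose are shown first, because the levels of Tmod1, Tpm1, Tpm2 and Lmod2 were all higher. Those of Tpm3 are shown because it has a pair of RefSeq start sites whose RNA the table does not separate. Each is the 250 bases before a RefSeq start site (build GRCm38.p6), written from 5′ to 3′ on the strand of the gene. RefSeq starts differ from the gene ends of the GENCODE M21 annotation given below. By those ends, the Tmod1 and downstream Tpm3 windows lie wholly inside the gene, and the Tpm1 and Tpm2 windows mostly inside it. The Lmod2 and upstream Tpm3 windows reach only into the first bases of the gene. RefSeq windows matched 8 of the 10 genes, in 9 windows. The bases just after the downstream Tpm3 start were not found in any GENCODE M21 transcript of Tpm3, unlike those after every other start. That start is therefore less certain. Capitals mark E-boxes (CANNTG, bound by myogenic bHLH factors), MCAT elements (CATTCC, bound by TEAD factors) and the YY1 core (CCATNTT, for the factor named in the series title), searched on both strands. The windows are chr4:46038972-46039221 on the plus strand for Tmod1, chr9:67049214-67049463 on the minus strand for Tpm1, chr4:43523555-43523804 on the minus strand for Tpm2, chr6:24597521-24597770 on the plus strand for Lmod2, and chr3:90072401-90072650 and chr3:90079271-90079520 on the plus strand for the upstream and the downstream start of Tpm3.
Tmod1: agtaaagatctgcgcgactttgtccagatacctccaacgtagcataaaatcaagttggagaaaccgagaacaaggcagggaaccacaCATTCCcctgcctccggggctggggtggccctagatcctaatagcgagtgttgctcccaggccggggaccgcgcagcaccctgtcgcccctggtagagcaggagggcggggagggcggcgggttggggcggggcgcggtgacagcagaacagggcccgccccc
Tpm1: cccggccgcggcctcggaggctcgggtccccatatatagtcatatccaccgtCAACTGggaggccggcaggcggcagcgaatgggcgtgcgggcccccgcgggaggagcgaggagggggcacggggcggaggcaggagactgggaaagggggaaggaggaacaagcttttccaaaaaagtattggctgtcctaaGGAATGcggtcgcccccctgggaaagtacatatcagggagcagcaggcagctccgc
Tpm2: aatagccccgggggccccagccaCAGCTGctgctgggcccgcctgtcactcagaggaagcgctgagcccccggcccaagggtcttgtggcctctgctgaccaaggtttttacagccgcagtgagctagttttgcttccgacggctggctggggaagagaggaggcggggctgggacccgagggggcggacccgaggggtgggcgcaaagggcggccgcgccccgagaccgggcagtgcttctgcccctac
Lmod2: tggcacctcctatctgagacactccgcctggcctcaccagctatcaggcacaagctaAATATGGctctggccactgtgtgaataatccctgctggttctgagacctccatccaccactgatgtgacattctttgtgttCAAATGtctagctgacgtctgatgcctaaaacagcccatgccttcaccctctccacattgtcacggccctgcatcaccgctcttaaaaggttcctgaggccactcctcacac
Tpm3, upstream start: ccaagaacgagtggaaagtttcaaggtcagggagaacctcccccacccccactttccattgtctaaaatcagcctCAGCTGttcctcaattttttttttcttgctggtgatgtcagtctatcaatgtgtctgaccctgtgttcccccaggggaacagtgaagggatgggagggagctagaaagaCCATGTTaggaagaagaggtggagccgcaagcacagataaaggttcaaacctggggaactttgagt
Tpm3, downstream start: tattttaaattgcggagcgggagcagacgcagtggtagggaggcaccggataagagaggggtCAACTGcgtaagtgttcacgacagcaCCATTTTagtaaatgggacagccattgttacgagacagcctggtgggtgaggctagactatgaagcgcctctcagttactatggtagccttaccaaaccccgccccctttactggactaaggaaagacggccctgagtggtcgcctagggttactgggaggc

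The windows of the genes that rose shared no single one of these motifs. An E-box was present for Tpm1, Tpm2, Lmod1, Lmod2, Tmod4 and both starts of Tpm3, and 66.2% of the 32841 promoter windows of this length hold one. An MCAT element was present for Tmod1 (163 to 158 bases before the start), Tpm1 (56 to 51) and Lmod1 (130 to 125), against 12.6% of all windows. The YY1 core was present for Lmod2 (193 to 187 bases before the start) and for the upstream (66 to 60) and downstream (162 to 156) starts of Tpm3, against 12.4% of all windows. No window held a CArG box (the SRF site, in 1.47% of all windows) or a MEF2 site (in 2.92%) in the letters searched. The Tpm4 window held none of the 5 motifs. These matches describe letters only, in windows that end just before RefSeq starts, and RNA of the alternative starts of a gene is pooled in its value.

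The values of the table are read here as FPKM, since their unit is not stated. FPKM are fragments scaled to the length of the gene and to the size of the library. On that reading, levels can be compared between genes of different length. Fhl3 itself was at 57.2, 53.5 and 58.9 FPKM in libraries labelled FHL3-KO and at 27.8, 30.03 and 33.7 FPKM in WT, so the RNA of the targeted gene was higher in the libraries so labelled. For this reason each group is called by its label. Whether the labels are exchanged was not tested. If they were, every direction given below, of genes, shares and ratios, would turn round. Of 8 myotube markers 7 were called higher, while over all tested genes 19.7% were called higher and 21.2% lower. The counts of the other marker lists are read beside the same shares. The 8 summed to 8524 to 8942 FPKM in libraries labelled FHL3-KO and 3127 to 3434 FPKM in WT. Most of this was Acta1, with means of 5461 FPKM in libraries labelled FHL3-KO and 1927 FPKM in WT. The marker not called was Ttn, at a log2 change of -0.287. Of 6 fibroblast markers 3 were called lower and 1 higher (sums of 147.5 to 165.9 FPKM in libraries labelled FHL3-KO, against 435.1 to 497.7 FPKM in WT). Of 3 undifferentiated myoblast markers Myf5 was called lower while Pax3 was listed at 0 throughout and Pax7 was too low to be tested. Their sums were 8.81 to 10.7 FPKM in libraries labelled FHL3-KO, against 26.1 to 36.9 FPKM in WT. Myf5 made up most of this, with means of 8.64 FPKM in libraries labelled FHL3-KO and 29.5 FPKM in WT. Pax7 overlapped between groups, with means of 0.994 FPKM in libraries labelled FHL3-KO and 0.93 FPKM in WT. Of 3 proliferation markers 1 was called higher and 2 lower (sums of 47.6 to 63.9 FPKM in libraries labelled FHL3-KO, against 57.01 to 69.1 FPKM in WT). Of 6 hepatocyte markers none was called, and all were listed at 0 in libraries labelled FHL3-KO, while their sum was 85.0 FPKM in WT replicate 1, 0.0208 FPKM in WT replicate 2 and 0.0221 FPKM (Apoa2 alone) in WT replicate 3. Without WT replicate 1 the log2 changes of Tmod1, Tpm1, Tpm2 and Lmod2 were 1.25, 0.51, 0.55 and 0.48, all still called (limma adjusted p = 0.000353 to 0.0132). The part of these differences in the results below was not tested. In bulk RNA, fewer cells of a type and less RNA per cell cannot be told apart.

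**Figure D1:**
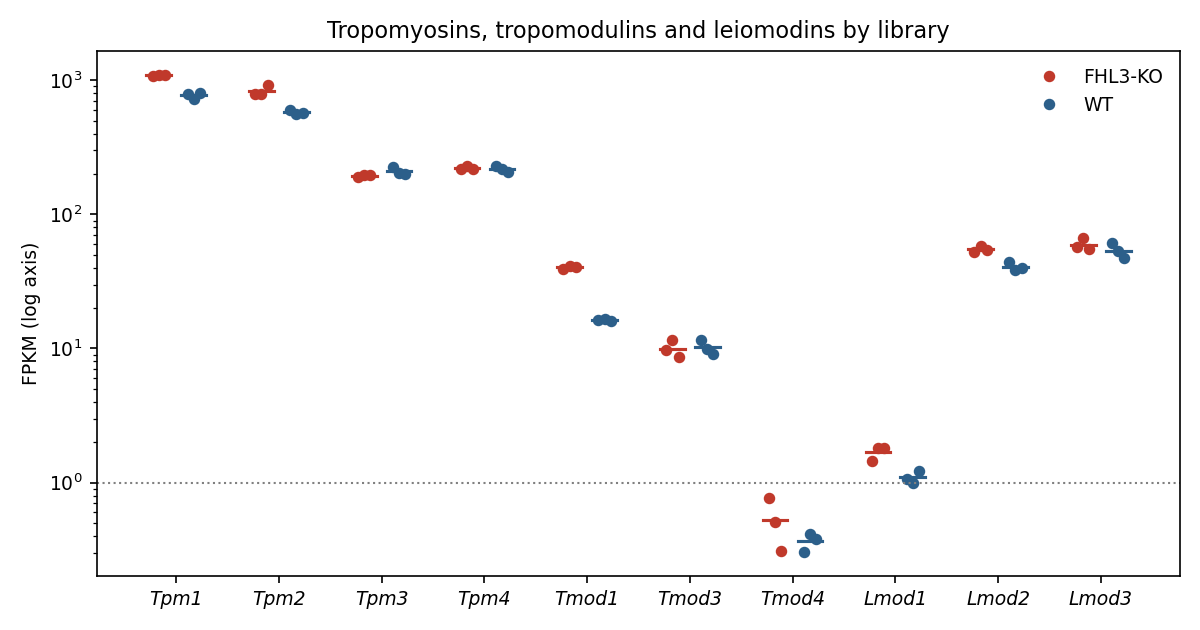
FPKM of each gene in every library on a log axis, with the 3 libraries labelled FHL3-KO in red and the 3 WT libraries in blue, a short line at each mean and a dotted line at the filter of 1 FPKM. The gap between groups is widest for Tmod1 (39.3 to 40.9 FPKM in libraries labelled FHL3-KO, against 16.2 to 16.5 FPKM in WT), while the points of Tpm4, Tmod3, Tmod4 and Lmod3 overlap.

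In level the set spanned from Tpm1 to Tmod4, in the same order in both groups. Tpm1 and Tpm2 led, followed by Tpm4, Tpm3, Lmod3, Lmod2, Tmod1, Tmod3, Lmod1 and Tmod4. Neighbours in this order did not overlap between their libraries except Lmod3 and Lmod2 in libraries labelled FHL3-KO and Tpm4 and Tpm3 in WT. Of the tropomyosins the muscle genes Tpm1 and Tpm2 together thus stood well above Tpm3 and Tpm4, and all of them above every tropomodulin and leiomodin. Across all genes limma called 40.8% of 12528 tested genes at an adjusted p under 0.05, 19.7% higher and 21.2% lower in libraries labelled FHL3-KO. Of the 9 members tested, 5 were called higher and 0 lower, with a median log2 change of 0.36 against -0.01 over all genes tested. The libraries of the 2 groups did not overlap for 5 members that were higher and 1 that was lower (Tpm3), against 26.9% of all tested genes in each direction and 53.8% in either.

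Tpm1 and Tpm2, which encode the main tropomyosins of striated muscle, both rose. Tpm1 (ENSMUSG00000032366, chromosome 9, 67022590 to 67049406, minus strand, GRCm38) was at 1085, 1086 and 1102 FPKM in libraries labelled FHL3-KO and at 785, 729 and 809 FPKM in WT. Every library labelled FHL3-KO was above every WT library. Tpm1 averaged 1091 ± 9.65 FPKM in libraries labelled FHL3-KO and 774.5 ± 40.9 FPKM in WT (SD over 3 libraries a group), a log2 change of 0.49 (SE 0.094) on the log2(FPKM + 1) scale, with a limma adjusted p of 0.00576. Tpm2 (ENSMUSG00000028464, chromosome 4, 43514711 to 43523765, minus strand) was at 793, 785 and 928 FPKM in libraries labelled FHL3-KO and at 597, 565 and 572 FPKM in WT. The groups were again apart, and replicate 3 labelled FHL3-KO was the highest library. Tpm2 averaged 835 ± 80.2 FPKM in libraries labelled FHL3-KO and 578 ± 16.7 FPKM in WT, a log2 change of 0.53 (SE 0.10, limma adjusted p = 0.0063). Both calls ended under quantile normalization, at log2 changes of 0.27 for Tpm1 (adjusted p = 0.0705) and 0.22 for Tpm2 (adjusted p = 0.173). Over the other alternatives the adjusted p stayed under 0.05 for both, and the lowest was 0.00262 for Tpm1 and 0.00574 for Tpm2.

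Tpm3 and Tpm4, which supply tropomyosins of the cytoskeleton of many cell types, did not pass the test. Tpm3, which also encodes a slow-fibre tropomyosin, lies on chromosome 3 (ENSMUSG00000027940, 90072649 to 90100902, plus strand) and was at 191, 195 and 196 FPKM in libraries labelled FHL3-KO and at 225, 202 and 201 FPKM in WT. The libraries labelled FHL3-KO were lower without overlap, but by little. The log2 change was -0.11 with a 95% interval of -0.29 to 0.08 (limma adjusted p = 0.312), and it was -0.05 without WT replicate 1. Tpm4 (ENSMUSG00000031799, chromosome 8, 72134975 to 72153142, plus strand) was at 217, 230.3 and 217 FPKM in libraries labelled FHL3-KO and at 229.9, 217 and 208 FPKM in WT. The libraries were mixed, with a log2 change of 0.02 and an interval of -0.16 to 0.21 (limma adjusted p = 0.841). Many other genes of chromosome 8 were higher: of its 676 tested genes 51.5% were called higher and 7.40% lower in libraries labelled FHL3-KO, while on the other chromosomes 17.8% were called higher and 21.9% lower. Tpm4 was not among them.

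Gene values pool products that differ in use. GENCODE M21 lists 21 transcripts for Tpm1, 6 for Tpm2, 16 for Tpm3 and 2 for Tpm4. Coding sequences of 852 bases, a length of long tropomyosins, are annotated for 7 transcripts of Tpm1, 3 of Tpm2 and 1 of Tpm3, and those of 744 bases, a length of short tropomyosins, for 3 of Tpm1, 2 of Tpm3 and 1 of Tpm4. The longest coding sequence of Tpm3 has 855 bases. Length alone does not tell muscle from cytoskeletal forms. The table has no value per transcript, so long and short forms of Tpm1 and Tpm3 cannot be told apart. A retrogene copy of Tpm3, Tpm3-rs7 on chromosome 14, was at 12.9, 9.62 and 10.9 FPKM in libraries labelled FHL3-KO and at 15.9, 13.0 and 14.3 FPKM in WT (log2 change -0.34, limma adjusted p = 0.0619). The sources used here do not tell how reads that fit both copies were counted, so the division between Tpm3 and its copy is uncertain. A pair of antisense genes overlap Tpm4, Gm16091 at 0.309 to 1.46 FPKM in libraries labelled FHL3-KO and 0.885 to 1.81 FPKM in WT, and Gm26586 at 0.0302 to 0.250 FPKM in libraries labelled FHL3-KO and 0.0541 to 0.343 FPKM in WT. The strand setting of the counting is not known, so reads of Tpm4 and these genes cannot be told apart.

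**Figure D2:**
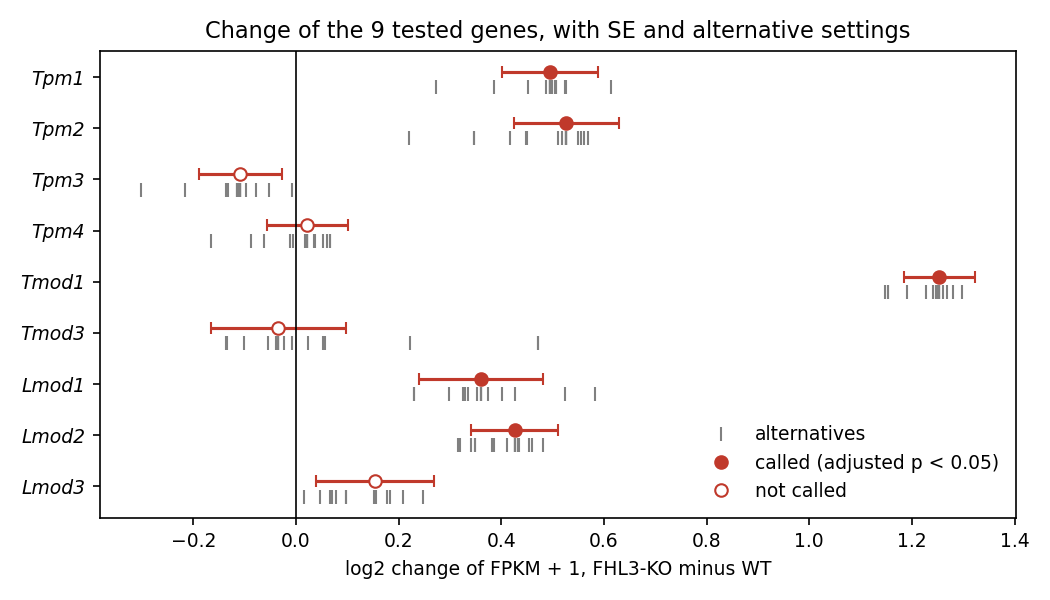
Log2 change of FPKM + 1 in libraries labelled FHL3-KO minus WT for the 9 genes tested, as red points with the limma SE, filled where called; grey ticks below each point give the same value under every alternative setting. Tmod1 lies between 1.15 and 1.30 in every setting, whereas the ticks of Tmod3 and Tpm4 fall on both sides of 0.

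Among the pointed-end caps, Tmod1 rose and Tmod3 did not pass the test. Tmod1, the tropomodulin of heart, skeletal muscle and red cells (ENSMUSG00000028328, chromosome 4, 46038935 to 46116032, plus strand), was at 39.3, 40.9 and 40.6 FPKM in libraries labelled FHL3-KO and at 16.3, 16.5 and 16.2 FPKM in WT. The spread within each group was far smaller than the gap between them. Tmod1 averaged 40.3 ± 0.852 FPKM in libraries labelled FHL3-KO and 16.3 ± 0.174 FPKM in WT (SD over 3 libraries a group), a log2 change of 1.25 (SE 0.069) with a limma adjusted p of 4.73e-05, which ran from 2.25e-05 to 0.000814 over the alternatives. Only 1.32% of the tested genes had a log2 change as high. Of 5 erythroid markers 2 were called lower and 0 higher, beside 21.2% and 19.7% over all genes. Their sums were 1.06 to 1.72 FPKM in libraries labelled FHL3-KO and 9.66 to 12.4 FPKM in WT. Most of this was the single gene Hba-a1, with means of 1.40 FPKM in libraries labelled FHL3-KO and 8.645 FPKM in WT. Tstd2, which overlaps the 3′ end of Tmod1 on the other strand by 1287 bases, was at 9.94 to 11.4 FPKM in libraries labelled FHL3-KO and at 11.5 to 11.99 FPKM in WT.

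Tmod3, the tropomodulin found in most cell types (ENSMUSG00000058587, chromosome 9, 75497707 to 75559657, minus strand), was at 9.71, 11.5 and 8.60 FPKM in libraries labelled FHL3-KO and at 11.6, 9.84 and 9.16 FPKM in WT. The groups overlapped, and the log2 change of -0.03 had a 95% interval of -0.34 to 0.27 (limma adjusted p = 0.852). This value depends on the processing: with the trend of each library with exon length and GC content removed, Tmod3 was called higher, at a log2 change of 0.47 (limma adjusted p = 0.00144). Its exons cover 11151 bases, the most of the 10 genes. Tmod4, the tropomodulin of adult skeletal muscle (ENSMUSG00000005628, chromosome 3, 95124476 to 95129209, plus strand), was at 0.768, 0.507 and 0.307 FPKM in libraries labelled FHL3-KO and at 0.305, 0.416 and 0.378 FPKM in WT. That was under the filter of a mean of 1 FPKM in at least 1 group, and the groups overlapped. Without a filter its log2 change was 0.15 (limma adjusted p = 0.524). The remaining family member, the neuronal Tmod2, was at 0.0389 FPKM or less in every library.

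The leiomodins of striated muscle were both well expressed, and Lmod2 rose. Lmod2, the leiomodin best known from heart (ENSMUSG00000029683, chromosome 6, 24597762 to 24605414, plus strand), was at 52.6, 58.3 and 54.6 FPKM in libraries labelled FHL3-KO and at 44.2, 38.4 and 39.97 FPKM in WT. All libraries labelled FHL3-KO were above all WT libraries. Lmod2 averaged 55.2 ± 2.91 FPKM in libraries labelled FHL3-KO and 40.8 ± 3.0 FPKM in WT, a log2 change of 0.43 (SE 0.084, limma adjusted p = 0.00665), and the call held under every alternative, with an adjusted p of 0.0458 at most. Lmod3, the leiomodin of skeletal muscle (ENSMUSG00000044086, chromosome 6, 97238534 to 97252759, minus strand), was at 57.6, 66.1 and 55.2 FPKM in libraries labelled FHL3-KO and at 60.7, 53.1 and 47.0 FPKM in WT. The groups overlapped, since WT replicate 1 was above a pair of libraries labelled FHL3-KO. The log2 change of 0.15 had a 95% interval of -0.11 to 0.42 (limma adjusted p = 0.311), and Lmod3 was not called under any alternative. Its log2 change was 0.25 without WT replicate 1, 0.07 without WT replicate 3, 0.08 without replicate 2 labelled FHL3-KO and 0.02 under quantile normalization.

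Lmod1, the leiomodin of smooth muscle, was low. Lmod1 (ENSMUSG00000048096, chromosome 1, 135324807 to 135368065, plus strand) was at 1.45, 1.82 and 1.80 FPKM in libraries labelled FHL3-KO and at 1.07, 0.999 and 1.21 FPKM in WT. The groups were apart, with means of 1.69 ± 0.21 FPKM in libraries labelled FHL3-KO and 1.09 ± 0.11 FPKM in WT. The log2 change of 0.36 (SE 0.12) just passed limma (adjusted p = 0.0475), but the call ended when any of the 6 libraries was left out (adjusted p = 0.0545 to 0.154) and held in only 5 of 17 alternatives. Of 7 smooth muscle markers 1 was called higher (Smtn) and 1 lower (Cnn1), beside 19.7% and 21.2% over all genes. Their sums were 2770 to 2864 FPKM in libraries labelled FHL3-KO and 2240 to 2549 FPKM in WT. Most of this was Des (means of 1482 FPKM in libraries labelled FHL3-KO and 1315 FPKM in WT) and Acta2 (1185 and 1003 FPKM), neither of them called. No library labelled FHL3-KO had any value above 0 for Myh11, the defining smooth muscle myosin, and in WT it was at 0.0136 FPKM or less.

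As shares of their family, Tpm2, Tmod1 and Lmod2 were higher and Tpm3, Tpm4, Tmod3 and Lmod3 lower in every library labelled FHL3-KO than in any WT library. Of the summed tropomyosin FPKM, Tpm1 and Tpm2 took 46.6% ± 1.30 and 35.6% ± 2.07 in libraries labelled FHL3-KO, against 43.5% ± 1.47 and 32.5% ± 0.519 in WT (SD over 3 libraries a group). Tpm3 took 8.29% ± 0.252 in libraries labelled FHL3-KO and 11.8% ± 0.526 in WT, and Tpm4 took 9.47% ± 0.575 in libraries labelled FHL3-KO and 12.3% ± 0.55 in WT. The libraries were apart for Tpm2, Tpm3 and Tpm4 but overlapped for Tpm1, since replicate 3 labelled FHL3-KO, at 45.1%, lay below WT replicate 3, at 45.2%. Of the summed tropomodulin FPKM, Tmod1 took 79.4% ± 2.39 in libraries labelled FHL3-KO and 60.8% ± 2.66 in WT, and Tmod3 took 19.6% ± 2.19 in libraries labelled FHL3-KO and 37.8% ± 2.89 in WT. Of the leiomodins, Lmod2 took 47.4% ± 1.40 in libraries labelled FHL3-KO and 42.9% ± 2.14 in WT, and Lmod3 took 51.1% ± 1.51 in libraries labelled FHL3-KO and 55.99% ± 2.34 in WT. Exact two-sided permutation tests gave p = 0.1 for the 7 shares whose groups were apart, the smallest that 3 against 3 allows, and 0.143 after adjustment over the 10 shares. The p was 0.2 for Tpm1 and Lmod1 and 0.3 for Tmod4. Shares within a family do not move when a library is rescaled. They add up to the whole of the family, so a higher share of 1 gene means lower shares elsewhere. The 7 shares are therefore not separate results.

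**Figure D3:**
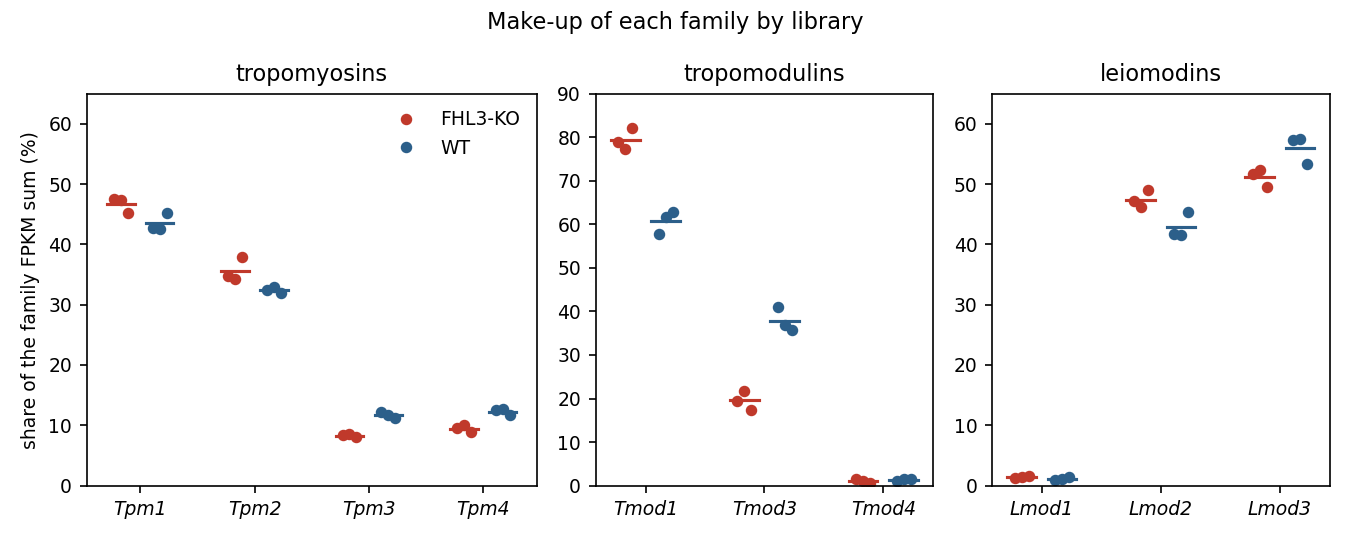
Share of each gene in the FPKM sum of its family, in percent, for the 3 libraries labelled FHL3-KO (red) and the 3 WT libraries (blue), with a line at each mean. The Tmod1 share is 77.3% to 81.99% in libraries labelled FHL3-KO and 57.8% to 62.9% in WT.

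Summed tropomyosin RNA was higher in every library labelled FHL3-KO than in any WT library, and lower in relation to sarcomeric actin. The 4 tropomyosins summed to 2287, 2295 and 2442 FPKM in libraries labelled FHL3-KO and to 1837, 1713 and 1790.0 FPKM in WT, with means of 2342 ± 87.3 FPKM in libraries labelled FHL3-KO and 1780 ± 62.9 FPKM in WT and a ratio of 1.31 (exact permutation p = 0.1). The sarcomeric actins Acta1 and Actc1 summed to 6530 ± 219 FPKM in libraries labelled FHL3-KO and 2139 ± 72.0 FPKM in WT, a ratio of 3.05, and Acta1 lies on chromosome 8. Tropomyosin per sarcomeric actin was 0.338, 0.355 and 0.385 in libraries labelled FHL3-KO and 0.893, 0.783 and 0.824 in WT. Every library labelled FHL3-KO was below every WT library, by 1.21 on the log2 scale in the mean (exact two-sided permutation p = 0.1, or 0.15 adjusted over 3 ratios). Acta1 and Actc1 have closely similar coding sequences, and how reads shared between them were counted is not known, so their sum and this ratio carry that uncertainty. Relative to the 3 troponin T genes, tropomyosin was at 0.923, 1.08 and 0.933 in libraries labelled FHL3-KO and at 1.18, 1.04 and 1.05 in WT. Those groups overlapped (log2 difference -0.15, exact p = 0.3), and the difference was -0.10 without WT replicate 1 and -0.23 without replicate 2 labelled FHL3-KO.

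The ratio of leiomodins to muscle tropomodulins was also lower in every library labelled FHL3-KO, although both sums were higher there. Lmod2 and Lmod3 summed to means of 114.8 FPKM in libraries labelled FHL3-KO and 94.4 FPKM in WT. Tmod1 and Tmod4 summed to 40.8 FPKM in libraries labelled FHL3-KO and 16.7 FPKM in WT, nearly all of it Tmod1. The lower ratio thus restates the rise of Tmod1 and is not a separate result. Lmod2 and Lmod3 together were at 2.75, 3.003 and 2.69 times the summed FPKM of Tmod1 and Tmod4 in libraries labelled FHL3-KO and at 6.32, 5.40 and 5.26 times in WT. The groups were apart, with a log2 difference of -1.01 (exact p = 0.1, adjusted 0.15). Over the libraries left out in turn the difference ran from -1.06 to -0.92.

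**Figure D4:**
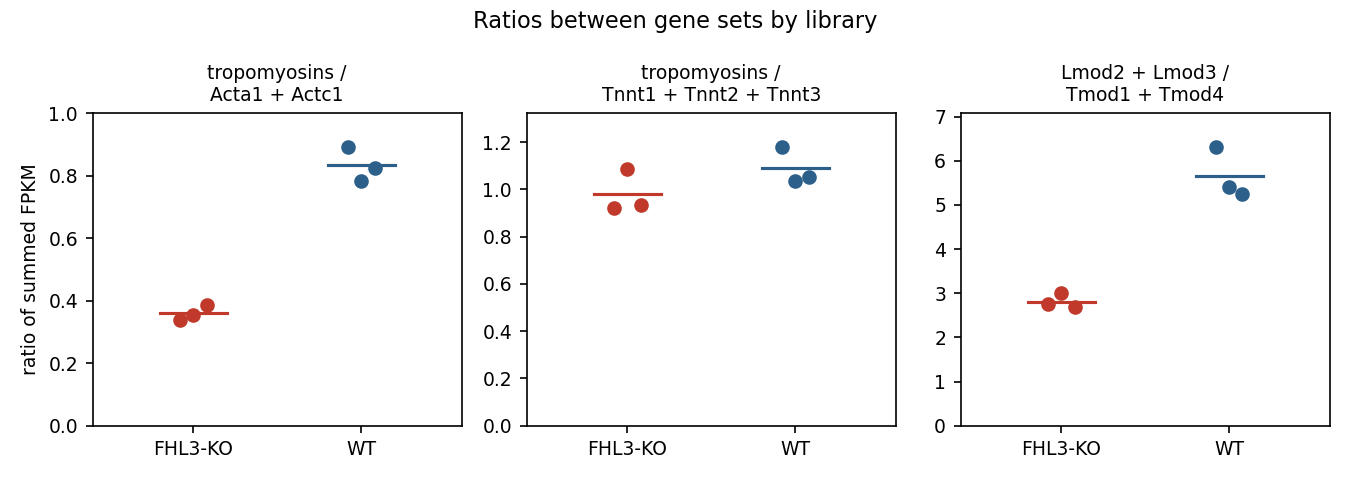
Ratios of summed FPKM in each library, with libraries labelled FHL3-KO in red on the left of each panel, WT in blue on the right and a line at each mean; the axes start at 0. Tropomyosin over Acta1 and Actc1 averages 0.359 in libraries labelled FHL3-KO and 0.833 in WT, tropomyosin over troponin T overlaps between groups, and leiomodin over tropomodulin averages 2.81 in libraries labelled FHL3-KO and 5.66 in WT.

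Genes that work with these proteins were read from 7 lists of 53 genes, of which 50 were tested. Of these, 16 were called higher and 10 lower, against the 19.7% and 21.2% of all genes. Of 8 troponin genes, whose products sit on tropomyosin, 6 rose and 0 fell, with a median log2 change of 0.70. The inhibitory subunit gene Tnni1 was at 2310 ± 58.0 FPKM in libraries labelled FHL3-KO and 1039 ± 55.5 FPKM in WT (limma adjusted p = 0.000302), and Tnnt3, whose protein ties troponin to tropomyosin, at 970.0 ± 46.5 FPKM in libraries labelled FHL3-KO and 542 ± 32.1 FPKM in WT (adjusted p = 0.000778). Tnni2, the inhibitory subunit of fast fibres, was at 886 ± 168 FPKM in libraries labelled FHL3-KO and 488 ± 90.2 FPKM in WT (limma adjusted p = 0.00839). The call of Tnnc2, whose groups overlapped, ended under 8 of 18 alternatives (limma adjusted p up to 0.155). That of Tnnt1 ended under 2 and that of Tnnc1 under 1. Tnnt2 was called higher without replicate 2 labelled FHL3-KO (adjusted p = 0.0306). Over the alternatives 3 to 7 troponins were called higher. Of 6 actins 2 rose and 1 fell (1 rose where chromosome 8, which holds Acta1, was left out). The skeletal actin Acta1 was at 5461 ± 236 FPKM in libraries labelled FHL3-KO and 1927 ± 84.4 FPKM in WT (limma adjusted p = 0.000208), and the cardiac actin Actc1, which developing skeletal muscle also uses, at 1069 ± 40.1 FPKM in libraries labelled FHL3-KO and 212 ± 13.3 FPKM in WT (log2 change 2.33, adjusted p = 7.91e-06). The smooth muscle actin Actg2 fell to 9.21 ± 0.592 FPKM in libraries labelled FHL3-KO, against 36.01 ± 3.10 FPKM in WT (log2 change -1.86, limma adjusted p = 3.1e-05).

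Most genes tied to filament ends were not called. Of 7 tested genes of the nebulin family and of capping and nucleation, 1 rose and 1 fell, with a median log2 change of -0.14 and 1 to 3 called in each direction over the alternatives. Over all genes 19.7% were called higher and 21.2% lower, so these counts are no result about the list. The riser was Cobl, an actin nucleator with WH2 domains, at 78.3 ± 4.08 FPKM in libraries labelled FHL3-KO and 33.0 ± 2.36 FPKM in WT (limma adjusted p = 9.85e-05), and the gene that fell was the nebulin relative Lasp1, at 65.2 ± 2.80 FPKM in libraries labelled FHL3-KO and 92.8 ± 2.01 FPKM in WT (adjusted p = 0.00179). The barbed-end cap gene Capza1 was at 23.8 ± 2.83 FPKM in libraries labelled FHL3-KO and 30.02 ± 2.82 FPKM in WT (adjusted p = 0.0502) and was called lower under 8 of 18 alternatives. Neb, which spans the thin filament up to the pointed-end cap, was at 14.6, 22.4 and 12.1 FPKM in libraries labelled FHL3-KO and at 17.2, 11.2 and 9.77 FPKM in WT (adjusted p = 0.325). Neb was called higher under 3 of 18 alternatives: length correction, length and GC correction, and the replicate block with length and GC correction. Over all alternatives its log2 change was 0.72 at most and its limma adjusted p 0.00551 at least.

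The Kelch gene Klhl41, whose protein stabilises nebulin, rose to 248 ± 15.4 FPKM in libraries labelled FHL3-KO, against 117 ± 9.84 FPKM in WT (limma adjusted p = 0.000241). Its relative Klhl40, whose protein stabilises Lmod3 and nebulin, also rose, at 57.6 ± 5.88 FPKM in libraries labelled FHL3-KO and 37.3 ± 2.03 FPKM in WT (adjusted p = 0.0026), but its call ended under the replicate block with length and GC correction (adjusted p = 0.0523). In the same list of 4, the myosin chaperone Unc45b rose, at 46.4 ± 2.29 FPKM in libraries labelled FHL3-KO and 32.9 ± 0.444 FPKM in WT (limma adjusted p = 0.00223). The heat shock gene Hsp90aa1 fell to 86.6 ± 12.2 FPKM in libraries labelled FHL3-KO, against 297.5 ± 41.2 FPKM in WT (limma adjusted p = 0.000175).

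Of 7 tested actin binders that share the filament with tropomyosin, 1 rose, 3 fell and 3 were not called, beside 19.7% called higher and 21.2% lower over all genes. Their median log2 change was -0.10, and 1 to 2 were called higher and 2 to 4 lower over the alternatives. Cnn3, a calponin of many cell types, was at 637 ± 21.6 FPKM in libraries labelled FHL3-KO and 367 ± 8.10 FPKM in WT (limma adjusted p = 0.00051). Caldesmon (Cald1), which binds tropomyosin and actin outside the sarcomere, was at 65.6 ± 9.45 FPKM in libraries labelled FHL3-KO and 102.8 ± 11.5 FPKM in WT (adjusted p = 0.00644). The smooth muscle calponin Cnn1 was at 0.151 ± 0.127 FPKM in libraries labelled FHL3-KO and 1.24 ± 0.192 FPKM in WT (limma adjusted p = 0.0022). Cnn2 was the other gene that fell, at a log2 change of -0.62 (adjusted p = 0.0076).

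The counts of transcription and splicing factors tied to these genes are read beside the 19.7% called higher and 21.2% lower over all genes. Of 6 tested SRF and MEF2 regulators 2 rose and 1 fell, and the median log2 change was 0.12. Mef2d, a MEF2 factor of muscle, was at 85.1 ± 12.5 FPKM in libraries labelled FHL3-KO and 55.6 ± 3.71 FPKM in WT (limma adjusted p = 0.0066). Mef2c rose (limma adjusted p = 0.0219) and Mef2a fell (adjusted p = 0.0321), but the Mef2c call ended under 5 and the Mef2a call under 7 of 18 alternatives. Srf, whose protein binds the CArG box, was at 32.4 ± 3.17 FPKM in libraries labelled FHL3-KO and 27.6 ± 0.347 FPKM in WT (adjusted p = 0.0773). Of 12 splicing factors linked to tropomyosin or muscle exon choice 1 rose, 3 fell and 8 were not called, with a median log2 change of 0.04, and 1 to 5 were called higher over the alternatives. Rbm24, a splicing factor of striated muscle, was at 60.5 ± 7.86 FPKM in libraries labelled FHL3-KO and 20.6 ± 1.14 FPKM in WT (adjusted p = 0.000113). The muscleblind genes Mbnl1 and Mbnl2 fell, at log2 changes of -1.01 and -0.86 (adjusted p = 0.00833 and 0.00835), and Ptbp2, a relative of the repressor of muscle exons in tropomyosin genes, at -0.58 (adjusted p = 0.011). The Ptbp2 call ended after length and GC correction.

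**Figure D5:**
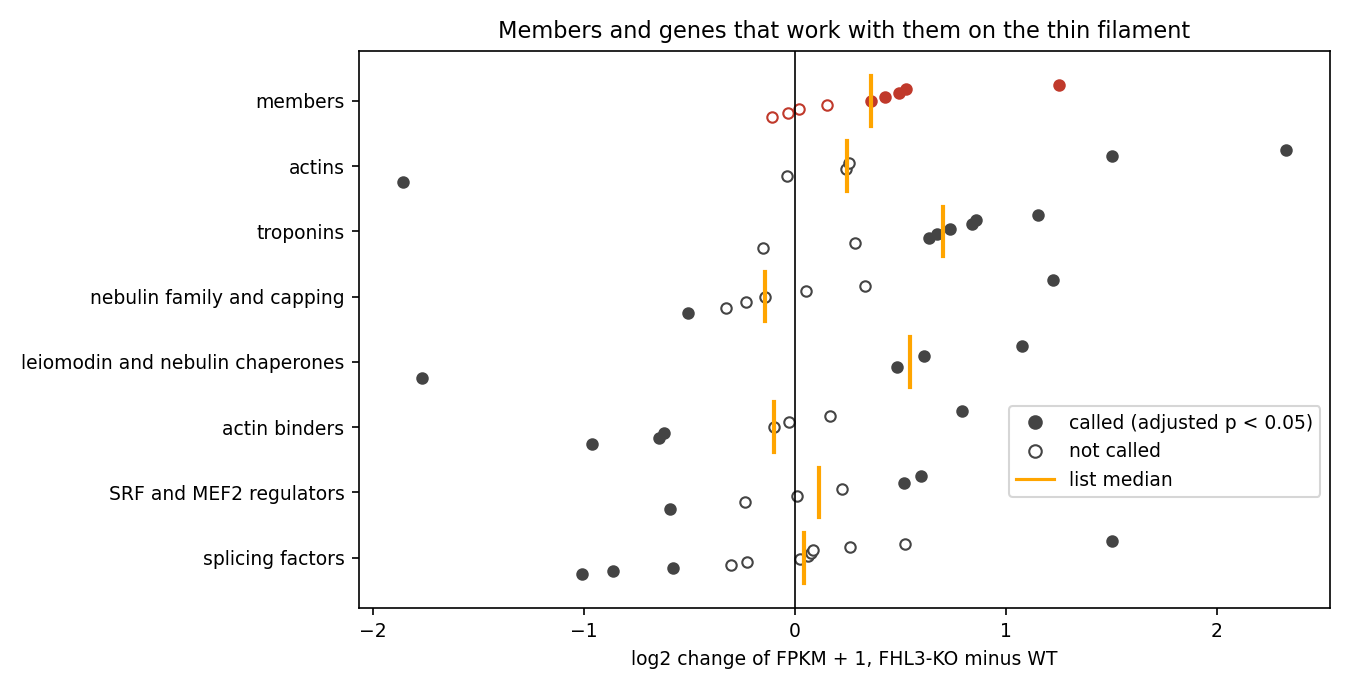
Log2 change of FPKM + 1 in libraries labelled FHL3-KO minus WT for each tested member (red) and each tested gene of the 7 lists (grey), filled where called, with an orange line at the median of each row. The troponins have the highest list median at 0.70, and the members' own median is 0.36.

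In pattern over the 6 libraries, the tested gene of at least 5 FPKM most like Tmod1 was Sh3bp4 (Pearson r = 0.9996), and for Tpm1 it was Tubb2a (r = 0.9996). For Tpm2 it was Cdk16 (0.9983), for Lmod2 Nup133 (0.9986), for Lmod1 H1f10 (0.9994) and for Lmod3 Atf7ip (0.9972). For Tpm3 it was Arnt (0.9936), for Tpm4 Celf1 (0.9957), for Tmod3 Abraxas2 (0.9937) and for Tmod4 Alg3 (0.9714). These are the highest of many correlations over only 6 libraries of 2 groups and describe likeness alone.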

How the data were processed

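Bulk RNA-seq of 6 libraries was analysed. The submitters' processing notes name mm10 and the tools HISAT2 2.2.1, Trim Galore 0.6.6, DESeq2 1.28.1 and featureCounts 2.0.1, without saying what each did. Neither the strand setting nor how the table was made is stated. The deposited values are decimals per gene, read here as FPKM from the values. In each library FPKM times exon length piled up at a single value between 48.5 and 56.4, in 111 to 185 genes against 2 to 5 in a typical bin, which would be 1 fragment at a depth of 17733912 to 20634422 fragments. This depth is inferred, so no counting interval is given. On that reading Tmod4 had about 10.02 to 23.4 fragments per library.

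Of 55420 rows, 7 with repeated gene IDs were left out. Kept were genes whose mean reached 1 FPKM in at least 1 group, and log2(FPKM + 1), which understates changes of low genes, was compared by limma 3.58.1 under R 4.3.3 (mean-variance trend, two-sided, no covariate, Benjamini-Hochberg over all tested genes). The limma fit was tested on simulated data. Coordinates, exon lengths and overlaps come from GENCODE M21 (GRCm38), with 94% of gene IDs matched. Shares and ratios were compared by exact permutation with scipy 1.17.1. Alternatives were a pseudocount of 0.1, no filter or 5 FPKM, quantile, same-sum and median-of-ratios scaling, length and GC correction (splines, 5 degrees of freedom), a replicate block, each library left out (for the ratios, chosen after seeing the data), no trend, chromosome 8 left out and a threshold of 0.01. The members, lists, tests and alternatives were chosen with earlier results of these data known. Named were all members, Fhl3, the 3 genes of lowest p in each list and the gene most like each member. Tnnt1, Tnnc1, Tnnc2, Cnn2, Klhl40, Neb, Srf, Ptbp2, Tnnt2, Tmod2, the Tpm3 copy, overlapping genes and the markers Myf5, Pax3, Smtn, Myh11 and Apoa2 were added after their values were seen. So were the markers Ttn, Des, Acta2, Pax7 and Hba-a1. A marker gene of the erythroid list is not reported here.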

Additional observations from a re-analysis of the deposited data

How the results depend on the processing

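Tmod1 and Lmod2 were called higher under all 18 alternatives, and Tpm1 and Tpm2 under 17 of 18. Under quantile normalization 3 of the 9 tested members were called higher in place of 5, beside 4964 of 12528 genes called in either direction. After length correction 6 were called higher, beside 5587 of 12493 genes called in either direction. Over the libraries left out in turn the count of members called higher was 4. No member was called lower in any setting. Over all genes the calls moved from 5112 to 2695 at an adjusted p of 0.01 and ran from 3272 (without WT replicate 2) to 5273 with a library left out. The uncalled log2 change of Tpm4 turned negative after length correction (-0.063), quantile normalization (-0.165) and same-sum scaling (-0.087), and lay between -0.011 and 0.06 with a library left out. That of Tmod3 turned positive after length correction (0.22, limma adjusted p = 0.0492), length and GC correction (0.47), quantile normalization (0.024) and the replicate block with length and GC correction (0.47, adjusted p = 0.00808), and lay between -0.136 and 0.056 with a library left out. The cause was not tested. Multiplying FPKM by exon length moved the difference in share, FHL3-KO minus WT, to -4.49 points for Tpm3, -1.32 for Tpm4, 22.6 for Tmod1, -22.6 for Tmod3 and 0.557 for Lmod1, with every sign kept. The labels do not tell whether replicate numbers pair the libraries. In their deviations from the group means, same-numbered libraries correlated at -0.127, -0.0626 and 0.316, and differently numbered ones at -0.376 to 0.368. With the replicate block 4759 genes and 4 members were called, Lmod1 being lost (adjusted p = 0.0884). Same-sum scaling moved the median of all genes by -0.098 (log2). No alternative with 5 FPKM as the minimum exists for Lmod1, nor one without chromosome 8 for Tpm4. The filter at 1 FPKM left out Tmod4, whose depth is known only by inference.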
